A study of Mus musculus with 12 samples.

Results

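Carbonyl reductases were described here in mouse mammary tumours through the genes Cbr1, Cbr2, Cbr3 and Dcxr. The members were every probe set that the array platform annotates to one of these 4 symbols. Each gene had 1 probe set, so the account covers 4 of 22690 probe sets on 12 arrays. The array measures 12393 genes by name. The family was chosen by the log2 differences between the genotypes, among which Cbr2 and Dcxr stood high. Their differences are therefore given as a description, with no test.

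Both groups were tumours of female FVB mice carrying a c-myc transgene under the promoter of mouse mammary tumour virus (MMTV-c-myc), which drives Myc in mammary epithelium. The Hunk knockout group (6 arrays) lacked Hunk, a protein kinase related to Snf1, through a germline replacement of its putative promoter and exon 1 by a neomycin cassette, so that host cells of the tumour lack it too. The replaced allele was made in E14 embryonic stem cells, and the strain of the tumours is labelled FVB. The Hunk wild-type group (6 arrays) carried intact Hunk and the same transgene. The females had been mated, and ages are not given in the labels. The labels number the samples but do not say that each is a separate tumour or mouse, so p-values measure the spread between these samples, which may be technical.

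Carbonyl reductases are short-chain dehydrogenases/reductases that use NADPH to turn aldehydes and ketones into alcohols. Cbr1 and Cbr3 are cytosolic enzymes that act on quinones and other xenobiotic carbonyls, and Cbr1 also reduces prostaglandins. Cbr2 is a mitochondrial enzyme known from the mouse lung, and it was also described in mouse adipocytes. Dcxr, dicarbonyl and L-xylulose reductase, reduces dicarbonyls and L-xylulose. The reduction of L-xylulose belongs to the glucuronate-xylulose pathway, whose product joins the pentose phosphate pathway.

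Cbr2 and Dcxr lie next to each other on chromosome 11 in the gene table, with no entry between them, and both genes are on the minus strand. Their promoter windows, 250 bases before to 50 after the start, are shown because these neighbouring genes were both higher in the knockout. The letters are RefSeq's for the C57BL/6J reference (GRCm38.p6), not FVB, and run 5′ to 3′ on the gene's strand. The windows are chr11:120731972-120732271 for Cbr2 and chr11:120727235-120727534 for Dcxr. Capitals mark the motif matches described next.
Cbr2: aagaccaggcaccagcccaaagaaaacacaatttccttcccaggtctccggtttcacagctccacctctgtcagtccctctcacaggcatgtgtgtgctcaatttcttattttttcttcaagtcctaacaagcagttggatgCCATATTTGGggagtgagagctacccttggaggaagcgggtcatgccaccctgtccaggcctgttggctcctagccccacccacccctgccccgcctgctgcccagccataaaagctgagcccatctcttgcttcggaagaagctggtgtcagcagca
Dcxr: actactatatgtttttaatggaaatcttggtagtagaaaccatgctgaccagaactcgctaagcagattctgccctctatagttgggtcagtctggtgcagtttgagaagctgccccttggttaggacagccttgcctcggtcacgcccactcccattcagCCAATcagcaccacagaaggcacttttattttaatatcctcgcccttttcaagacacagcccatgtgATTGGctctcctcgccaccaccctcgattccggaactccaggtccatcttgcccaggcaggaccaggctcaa

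The motifs were chosen with the sequences in view and searched on both strands. One was CCAAT. Another was TGACNNNGC, the core of the antioxidant response element. A further one was CACGTG, the E-box that Myc binds. The others were the TATA motif TATAAA, the GC box motif GGGCGG and the CArG box by its usual pattern. No match to one overlapped a match to another. The Cbr2 window held 1 CArG box, CCATATTTGG, at position -108 from the start, and a CArG box occurred in 1.63% of the 32851 windows. The Dcxr window held CCAAT at position -89 and its reverse complement at position -22, and CCAAT occurred in 37.4% of windows. The antioxidant response element occurred in 12.4% of windows, the E-box in 7.15% and the TATA motif in 13.6%, and none of these had a match in either. Cbr1, on the plus strand of chromosome 16, had CCAAT at position 20 and Cbr3 had 2 overlapping GC box matches at positions -101 and -97, a motif found in 35.7% of windows. None of the 6 motifs was present in both the Cbr2 and the Dcxr window. Being chosen with the sequences in view, they cannot show whether the windows share an element, which was not tested.

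Values are the deposited log2 GCRMA signals, on which 1 unit is a doubling. Signals of different probe sets are set against background and ranked to choose genes to name, but are not compared as amounts of RNA. A positive difference means a higher level in the knockout. The highest of 27 Bacillus control probe sets, which match no mouse transcript, gave each array's background. It lay between 3.60 and 4.00 in the knockout and between 3.45 and 3.75 in the wild type. The array medians lay between 3.87 and 4.10 over all 12 arrays. Precision is limited by there being 6 arrays a group, and n counts arrays, which are not known to be separate tumours. The mammary epithelial keratin Krt18 averaged 12.02 ± 0.63 (SD, n = 6) in knockout tumours and 12.19 ± 0.67 in wild-type tumours. The epithelial adhesion gene Epcam averaged 11.72 ± 0.35 (SD, n = 6) in knockout tumours and 11.91 ± 0.18 in wild-type tumours. Both genes belong to the luminal list given further on, in which Krt19, Elf5 and Cd24a were higher in the knockout. Knockout arrays 4 and 5 were the closest pair, with an SD of 0.259 for their difference over probe sets, against 0.412 for the next closest pair.

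Hunk, the targeted gene, was at background on 6 of 6 knockout arrays, between 2.60 and 3.06. In the wild type it ranged between 2.99 and 5.53 with a median of 4.02, and was above background on 4 of 6 arrays. The position of its probes relative to exon 1 was not looked up.

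Cbr2 was above background on every knockout array and at background on every wild-type array. Its signal in the knockout had a lowest value of 7.96, a median of 8.51 and a highest value of 9.83. In the wild type it had a lowest value of 1.84, a median of 2.20 and a highest value of 2.41. The groups did not overlap, and the lowest knockout array stood 5.55 above the highest wild-type array. As measured, with wild-type values below background, that gap was the largest among the 6825 genes tested, which the choice of the family already used. The next was 3.68 for Hp, the gene of the haemoglobin-binding protein haptoglobin.

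Cbr2 averaged 8.77 ± 0.75 (SD, n = 6) in knockout tumours and 2.20 ± 0.20 in wild-type tumours. The difference was 6.57 on the log2 scale (SE 0.29, 95% interval 5.93 to 7.21). Because all 6 wild-type values were below background, the measured difference depends on the floor of the signal, and the level was at least 35.8-fold higher in the knockout. Wild-type arrays 4 and 6, on which Hunk itself was at background with 3.32 and 2.99, had Cbr2 signals of 2.19 and 2.17. Both of these arrays thus had Hunk and Cbr2 at background together.

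Dcxr was measured above background on all 12 arrays and was higher in the knockout. In the knockout it had a lowest value of 7.51, a median of 8.80 and a highest value of 9.15. In the wild type it had a lowest value of 4.26, a median of 5.69 and a highest value of 7.47. The groups did not overlap, with a gap of only 0.04 between knockout array 4 and wild-type array 5. Knockout arrays 4 and 5, at 7.51 and 7.61, lay apart from the other 4 knockout arrays, which were between 8.75 and 9.15.

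Dcxr averaged 8.47 ± 0.72 (SD, n = 6) in knockout tumours and 5.86 ± 1.13 in wild-type tumours. The difference of 2.61 (SE 0.50, 95% interval 1.53 to 3.70) corresponds to a 6.12-fold higher level. Within the knockout the highest array was 3.12-fold above the lowest, and within the wild type 9.21-fold.

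Cbr1 was measured above background on all 12 arrays, and its groups overlapped. In the knockout it had a lowest value of 6.98, a median of 7.42 and a highest value of 8.17. In the wild type it had a lowest value of 6.64, a median of 7.16 and a highest value of 7.24. Knockout arrays 1 and 6, at 8.04 and 8.17, were the highest of all, and knockout array 3 was below the wild-type median. The difference of 0.50 (SE 0.21, 95% interval 0.04 to 0.96) is 1.41-fold.

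Cbr3, the close paralogue of Cbr1, was at background on all 12 arrays. It ranged between 2.24 and 2.77 in the knockout and between 2.21 and 2.31 in the wild type, so no fold is given.

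**Figure D1:**
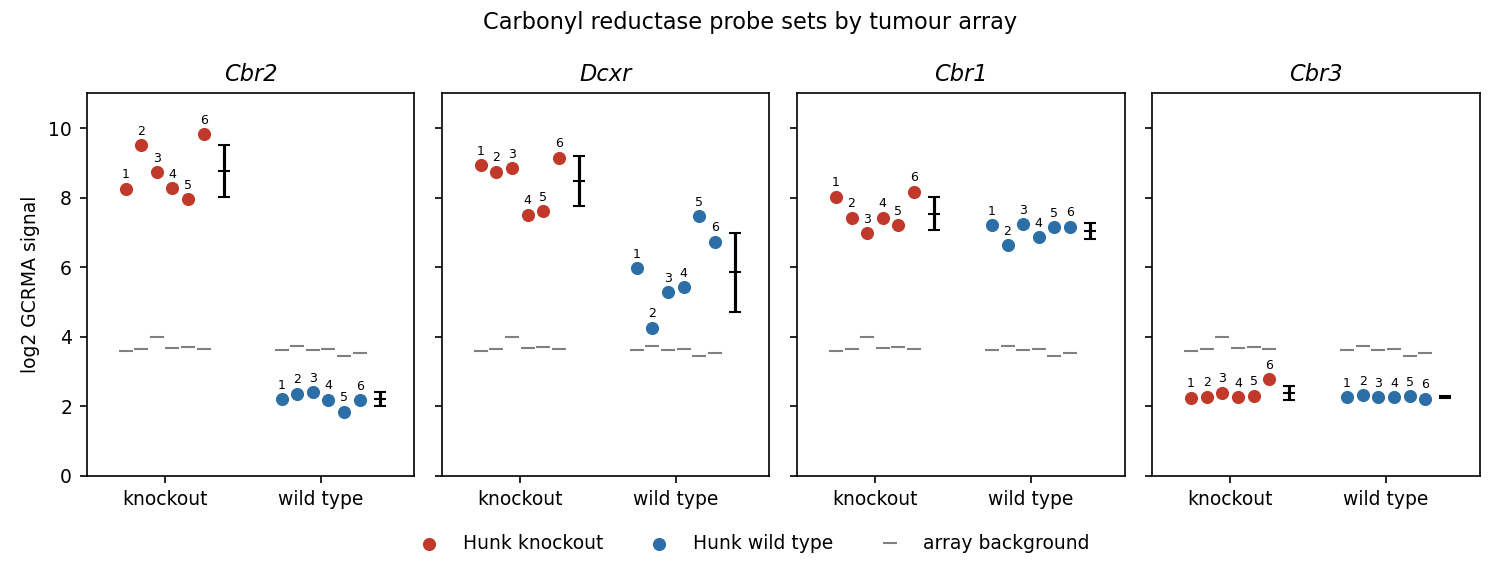
Log2 GCRMA signal (vertical axis) of Cbr2, Dcxr, Cbr1 and Cbr3 on the 6 knockout (left, red) and 6 wild-type (right, blue) arrays, numbered by replicate, with mean ± SD in black and array background as grey dashes. Cbr2 stands between 7.96 and 9.83 in the knockout and below background in the wild type, Dcxr is higher in the knockout with a gap of 0.04, Cbr1 overlaps between groups and Cbr3 is below background throughout.

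As background to these values, 117 of 6825 genes tested, or 1.71%, had all knockout arrays above all wild-type arrays, and 3.15% did not overlap in either direction. By limma with Benjamini-Hochberg adjustment, 113 genes, or 1.66%, were higher in the knockout, 115 genes, or 1.68%, were lower, and 228 genes, or 3.34%, were past the threshold in either direction. Of the 4 members, Cbr2, Dcxr and Cbr1 passed the filter on low values, Cbr2 through the knockout alone, and Cbr3 did not. Cbr2 and Dcxr were among the genes with no overlap, which the choice of the family already used. The share of all genes tested with an unadjusted p under 0.05 was not counted, so later counts by unadjusted p have no background here.

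Whether the members rose and fell together from array to array was looked at within each group, since the groups themselves form separate clusters. The members above background on every array of a group gave 4 relations, 3 in the knockout and 1 in the wild type. Knockout array 6 had the highest level of Cbr2, Dcxr and Cbr1. Arrays 4 and 5 were the 2 lowest for Dcxr, and array 5 was the lowest for Cbr2.

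Across the 6 knockout arrays Cbr2 and Dcxr had a Pearson r of 0.68 (exact permutation p = 0.111, adjusted p = 0.306 over the 4 relations) and a Spearman rho of 0.49 (exact permutation p = 0.356, adjusted p = 0.559). Without arrays 2 and 6, the farthest from the Cbr2 median, r was 0.63. Cbr2 and Cbr1 had an r of 0.38 (exact permutation p = 0.397, adjusted p = 0.397) and a rho of 0.43 (exact permutation p = 0.419, adjusted p = 0.559), and r was -0.34 without the same arrays, so that relation rested on them. Dcxr and Cbr1 had an r of 0.49 (exact permutation p = 0.361, adjusted p = 0.397) and a rho of 0.60 (exact permutation p = 0.242, adjusted p = 0.559), with r at 0.74 without arrays 4 and 5. In the wild type Dcxr and Cbr1 had an r of 0.67 (exact permutation p = 0.153, adjusted p = 0.306) and a rho of 0.20 (exact permutation p = 0.714, adjusted p = 0.714), and r was 0.27 without arrays 2 and 5. All tests were two-sided. None of the 4 relations passed, and 6 arrays a group limit what such a relation can show.

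**Figure D2:**
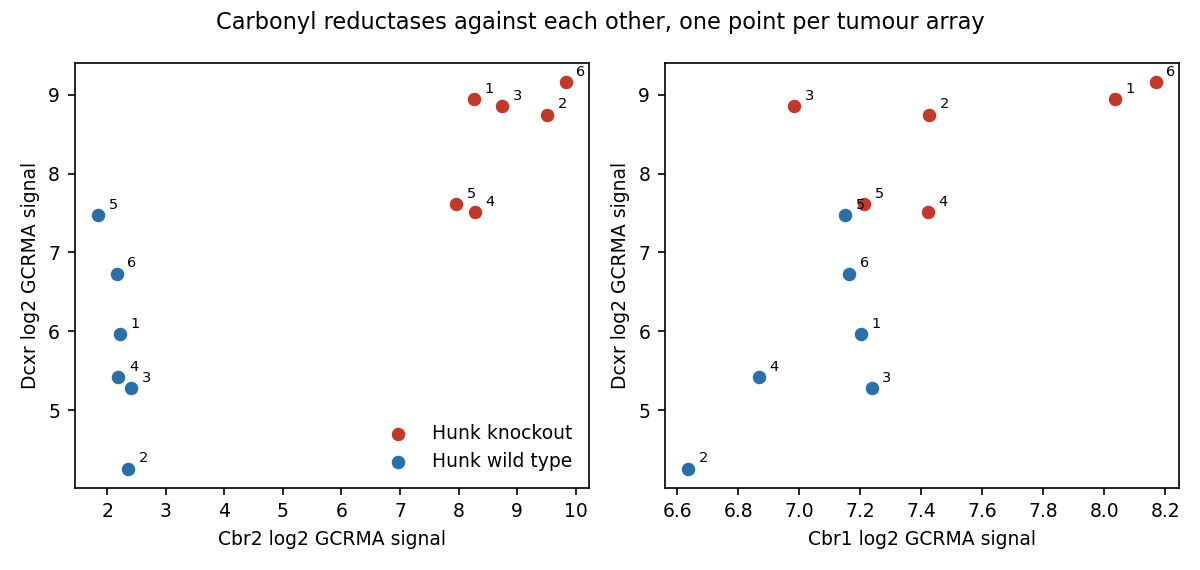
Log2 GCRMA signal of Dcxr (vertical axes) against Cbr2 (left) and Cbr1 (right), 1 point per array, numbered by replicate, knockout in red and wild type in blue. Dcxr spans 4.26 to 7.47 in the wild type while Cbr2 stays between 1.84 and 2.41, and among knockout arrays 4 and 5 lie low for Dcxr.

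The genes that followed each member most closely within the groups were listed next. Picking the closest of all genes tested brings high values of r by itself. Likeness was the Pearson r between deviations from the group means over 12 arrays, ranked over all genes tested and given as a description. Closest to Cbr2 were Psapl1 (r 0.95), the fatty acid elongase Elovl4 (0.95), complement factor B, Cfb (0.94), the acute-phase protein Saa3 (0.93) and the membrane mucin Muc1 (0.93), which is also in the luminal list given further on. Since Cbr2 was at background in the wild type, these rest mainly on the 6 knockout arrays. Closest to Dcxr were the tyrosine kinase Abl1 (0.93), Phykpl (0.92), the membrane protein Myof (0.90), the cysteine protease inhibitor Cstb (0.89) and the methionine salvage enzyme Mri1 (0.89). Closest to Cbr1 were the saposin precursor Psap (0.92), Calml3 (0.89), Carhsp1 (0.87), the lysosomal sterol carrier Npc2 (0.85) and the adaptor Stap2 (0.85). Dcxr ranked 1718 for likeness to Cbr2 over the 12 arrays (r 0.17), which include the wild-type arrays with Cbr2 at background. Over the 6 knockout arrays alone the r of this pair was 0.68. Among these 15 genes only Stap2 was past the threshold (log2 difference 1.13, SE 0.27, limma adjusted p = 0.0402), against 3.34% of all genes tested. Psapl1, Elovl4, Saa3 and Muc1 had differences of 1.03, 2.58, 2.11 and 2.35 that did not pass (adjusted p = 0.219, 0.246, 0.146 and 0.108).

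The genes around the members were compared next, taking the 10 entries on either side of each member in the gene table. On chromosome 11, 11 of the 20 neighbours of Dcxr and Cbr2 were on the array and 10 passed the filter. Of the 10, 3 had an unadjusted p under 0.05. None of the 10 was past the threshold in either direction (limma, lowest adjusted p = 0.0688), against 3.34% of all genes tested. Their differences ranged from -0.87 to 1.18 with a median of 0.15, against 0.01 over all genes tested.

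Rac3, a Rac GTPase and the neighbour of Dcxr, had a lowest value of 5.98 and a highest of 7.08 in the knockout, against 5.69 and 6.01 in the wild type (log2 difference 0.65, SE 0.18, adjusted p = 0.0688). The other 2 with an unadjusted p under 0.05 were named after their values were seen. Slc16a3, a lactate transporter, had a log2 difference of 1.18 (SE 0.34, adjusted p = 0.0853) and the centromere protein gene Cenpx one of -0.87 (SE 0.27, adjusted p = 0.101). Over its alternatives Rac3 had an adjusted p between 0.0241, with array weights, and 0.505, and it passed without knockout array 1 (adjusted p = 0.0398). Slc16a3 had an adjusted p between 0.0163, with array weights, and 0.485, and it passed without knockout array 1 (adjusted p = 0.0214). On the other side of Cbr2 the nearest tested gene was Rfng, with a difference of 0.27 (SE 0.24, adjusted p = 0.550). Fasn, the fatty acid synthase gene, lies farther out on that side, beyond Rfng, Gps1 and Dus1l, and had a difference of 0.04 (SE 0.34). Hmga1b, the next entry after Cbr2, has no probe set named for it.

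Cbr1 and Cbr3 lie on chromosome 16 with 1 pseudogene entry between them, and Hunk is on the same chromosome with 86 entries between it and Cbr1. Of the 21 neighbours, 5 were on the array and 4 passed the filter. Of these, 0 were past the threshold (limma, 0 with an unadjusted p under 0.05), against 3.34% of all genes tested. Setd4, a methyltransferase gene next to Cbr1, had a difference of 0.26 (SE 0.13, adjusted p = 0.305).

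**Figure D3:**
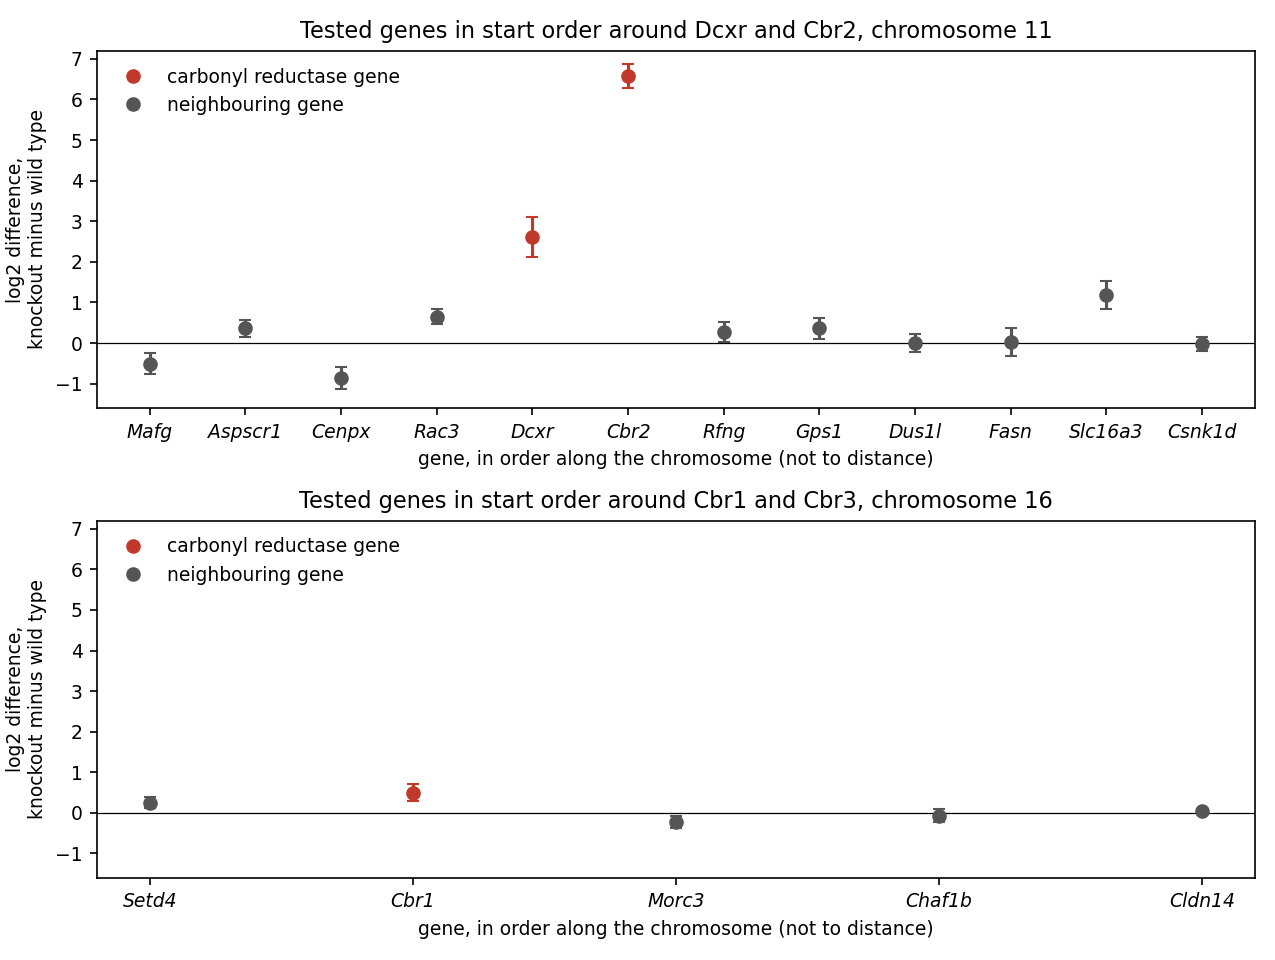
Log2 difference, knockout minus wild type (vertical axis, bars are the SE), of tested genes in start order along chromosome 11 (top) and chromosome 16 (bottom), with carbonyl reductase genes in red and neighbouring genes in grey. Cbr2 at 6.57 and Dcxr at 2.61 stand above 10 neighbours between -0.87 and 1.18, and Cbr1 is at 0.50 beside 4 neighbours between -0.22 and 0.26.

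Among enzymes of the pentose phosphate pathway, Tkt, Pgd and Taldo1 were higher in the knockout. Of 19 listed genes of the glucuronate-xylulose and pentose phosphate pathways, 16 were on the array and 11 were tested. By limma 3 rose, 8 did not pass and 0 fell, against a background of 1.66% of genes that rose. The median difference was 0.18, against 0.01 over all genes tested. Knockout and wild type did not overlap for any of these 3.

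Tkt, the transketolase that takes up xylulose 5-phosphate, had a lowest value of 13.28, a median of 13.45 and a highest value of 13.85 in the knockout. In the wild type its values were 12.16, 12.51 and 12.91 in the same order. It was 1.95-fold higher (log2 difference 0.96, SE 0.12, adjusted p = 0.00187). Pgd, the phosphogluconate dehydrogenase that yields NADPH, had 11.20, 11.60 and 11.81 in the knockout and 9.83, 10.34 and 10.99 in the wild type. It was 2.27-fold higher (log2 difference 1.18, SE 0.18, adjusted p = 0.00452). Taldo1, the transaldolase, had 10.53, 10.99 and 11.80 in the knockout and 9.24, 9.71 and 10.35 in the wild type. It was 2.33-fold higher (log2 difference 1.22, SE 0.24, adjusted p = 0.022).

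The other 8 tested genes of this list did not pass. Cryl1, also listed, was below the filter, and Sord was not on the array by name, so not all steps around Dcxr were tested. Xylb, the kinase that phosphorylates xylulose, had a difference of 0.18 (SE 0.24, adjusted p = 0.690), and Akr1a1, the reductase that acts on glucuronate, one of -0.03 (SE 0.10, adjusted p = 0.875). Gusb, which releases glucuronate, had a difference of -0.07 (SE 0.25), Ugp2, which makes UDP-glucose, 0.36 (SE 0.27) and Rpe, the ribulose phosphate epimerase, -0.04 (SE 0.16). Xylb was named for its place in the same pathway as Dcxr, after its values were seen. With the beta-actin 3′ minus 5′ difference as a covariate, Tkt had a log2 difference of 0.75 (SE 0.17) and Pgd one of 1.08 (SE 0.27). Both differences stayed positive with larger SEs, and neither passed (adjusted p = 0.0605 and 0.0732).

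**Figure D4:**
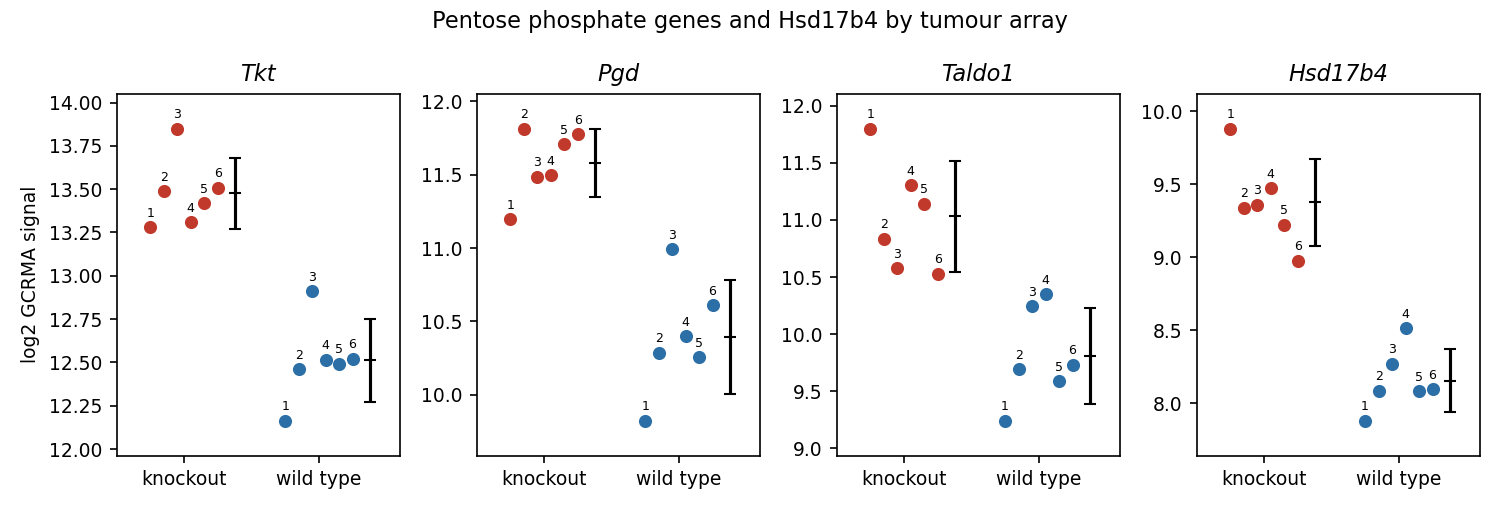
Log2 GCRMA signal (vertical axes, which do not start at 0) of Tkt, Pgd, Taldo1 and Hsd17b4 on the 6 knockout (left, red) and 6 wild-type (right, blue) arrays, numbered by replicate, with mean ± SD in black. The groups do not overlap in any panel, as for Tkt between 13.28 and 13.85 in the knockout and between 12.16 and 12.91 in the wild type.

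Other short-chain reductases, the wider family of the members, mostly did not pass. Of 45 listed, 36 were on the array, 22 were tested, 2 rose, 0 fell and 20 did not pass (limma, 4 higher and 2 lower with an unadjusted p under 0.05), with a median difference of 0.12. Over all genes tested 1.66% rose and 1.68% fell. Hsd17b4, a peroxisomal enzyme of fatty acid oxidation, had a lowest value of 8.98, a median of 9.35 and a highest value of 9.88 in the knockout, against 7.88, 8.09 and 8.52 in the wild type. It was 2.33-fold higher (log2 difference 1.22, SE 0.16, adjusted p = 0.00187), with no overlap of the groups. Bdh1, the mitochondrial enzyme of ketone body metabolism, had 5.41, 7.56 and 8.33 in the knockout and 2.84, 3.74 and 6.38 in the wild type.

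Bdh1 was at background on 3 of 6 wild-type arrays, its groups overlapped, and its log2 difference was 2.95 (SE 0.73, adjusted p = 0.0481). That call held in 3 of 12 fits with 1 array left out and had an adjusted p of up to 0.205 over its alternatives, while Hsd17b4 held in 12 of 12. The members of highest mean signal that did not pass were Qdpr, which regenerates tetrahydrobiopterin (-0.21, SE 0.19), Hsd17b12 of fatty acid elongation (-0.39, SE 0.20), the mitochondrial Hsd17b10 (0.88, SE 0.37) and the peroxisomal reductase Dhrs4 (-0.06, SE 0.35). Cbr4, which shares the family's name and was named after its values were seen, averaged 6.52 ± 0.09 (SD, n = 6) in knockout tumours and 6.45 ± 0.21 in wild-type tumours (limma adjusted p = 0.741).

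Aldo-keto and quinone reductases, a separate enzyme family with overlapping substrates, gave no call. Of 23 listed, 20 were on the array and 12 were tested, with a median of 0.16. By limma 0 rose or fell (2 higher with an unadjusted p under 0.05), against 3.34% of all genes tested. In lists of this size 0 is near that share. The aldehyde reductase Akr1a1 is given above. Akr7a5 had a difference of 0.29 (SE 0.12, adjusted p = 0.198), the prostaglandin reductase Ptgr2 0.17 (SE 0.15, adjusted p = 0.548) and Akr1b8 0.95 (SE 0.42, adjusted p = 0.241). Akr1b8 passed without knockout array 1.

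The Nrf2 target list, genes of the response to oxidants and electrophiles, gave no call either. Of 31 listed, 24 were on the array and 15 were tested, with a median of 0.15. By limma 0 rose or fell (4 higher and 1 lower with an unadjusted p under 0.05), near the share of 3.34% of all genes tested. The ferritin heavy chain Fth1 had a difference of -0.33 (SE 0.27), thioredoxin, Txn1, -0.32 (SE 0.10), the glutathione transferase Gstp1 0.62 (SE 0.20, adjusted p = 0.107) and the thioredoxin reductase Txnrd1 -0.14 (SE 0.19). Gstp1 passed with array weights and without wild-type array 5. Nqo1, the best known gene of that list, was named after its values were seen. It was above background on 1 of 6 knockout and 1 of 6 wild-type arrays.

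Prostaglandin enzymes bear on Cbr1, which acts on prostaglandins. Of 17 listed, 13 were on the array and 4 were tested. By limma 0 rose or fell (0 with an unadjusted p under 0.05), near the share of 3.34% of all genes tested. Ptgr2 is given above, and the reductase Ptgr1 had a difference of -0.94 (SE 0.47, adjusted p = 0.290). The phospholipase Pla2g4a had 0.14 (SE 0.23) and the prostaglandin D synthase Ptgds 0.09 (SE 0.09).

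**Figure D5:**
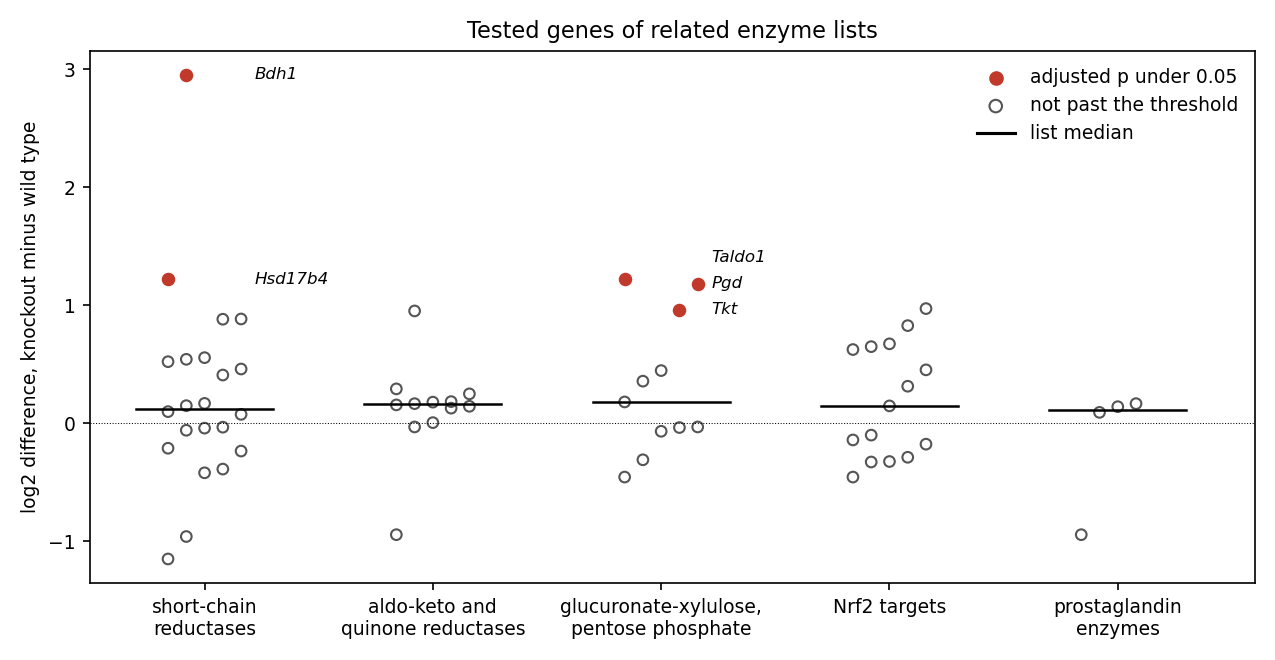
Log2 difference, knockout minus wild type (vertical axis), of each tested gene in 5 lists of related enzymes (horizontal axis). Filled red points passed at an adjusted p under 0.05 (limma), open points did not, and black lines are list medians between 0.12 and 0.18. Bdh1 at 2.95, Hsd17b4 at 1.22, and Taldo1, Pgd and Tkt between 0.96 and 1.22 are the 5 genes that passed.

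Markers of other cell types and of RNA quality moved with the genotype in part, and in whole tumours more cells of a type and more RNA per cell cannot be told apart. List levels here are means of log2 signals over the members on the array. The adipocyte list lay between 4.47 and 6.59 in the knockout and between 3.67 and 4.67 in the wild type. Of its 4 tested members 1 rose, against 1.66% of all genes tested. It was the lipase Pnpla2 (0.67, SE 0.15, adjusted p = 0.0308), a call that held in 5 of 12 fits with 1 array left out. Thrsp, the member of highest mean signal, did not pass (2.27, SE 0.74, adjusted p = 0.119). All 4 tested members had a positive difference, against 50.8% of all genes tested. All 4 also had an unadjusted p under 0.05 (limma), a count with no share over all genes here. Their median was 1.89, against 0.01 over all genes tested. The other 2, named after their values were seen, were the carbonic anhydrase gene Car3 (2.36, SE 0.95, adjusted p = 0.194) and the fatty acid binding protein gene Fabp4 (1.51, SE 0.65, adjusted p = 0.221). The defining marker Adipoq was above background on 1 of 6 knockout arrays and 0 of 6 wild-type arrays, and Lep, Cidec, Retn and Lipe were at background on all 12.

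The airway and alveolar list lay between 4.27 and 4.96 in the knockout and between 4.10 and 4.52 in the wild type. The P450 gene Cyp2f2 was the 1 of 6 tested members that rose (log2 difference 3.96, SE 0.97, adjusted p = 0.0465), a call that held in 3 of 12 fits with 1 array left out. Over all genes tested 1.66% rose. Cyp2f2 was at background on 3 of 6 wild-type arrays, and its difference was 3.44 with values raised to array background. Of the 6 tested, 2 were higher and 0 lower with an unadjusted p under 0.05. The other one, named after its values were seen, was the surfactant protein gene Sftpd (1.36, SE 0.46, adjusted p = 0.128). It lay between 4.20 and 6.97 in the knockout and between 3.75 and 4.89 in the wild type. Aqp5, the list member of highest mean signal, had a difference of -2.05 (SE 0.99, adjusted p = 0.280). The defining marker Scgb1a1 averaged 4.41 ± 0.09 (SD, n = 6) in knockout tumours and 4.30 ± 0.13 in wild-type tumours, and Scgb3a1, Scgb3a2, Sftpa1, Sftpb and Cldn18 were at background on all 12 arrays.

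The luminal epithelial list lay between 7.81 and 8.11 in the knockout and between 7.06 and 7.77 in the wild type, with no overlap of these means. Of its 9 tested members 6 had a positive difference, with a median of 0.39, and Krt18 (-0.17), Epcam (-0.19) and Kit had negative ones. By limma 3 members rose, Cd24a (0.87, SE 0.18, adjusted p = 0.0237), Elf5 (2.12, SE 0.53, adjusted p = 0.0483) and Krt19 (4.08, SE 0.97, adjusted p = 0.0422). Over all genes tested 1.66% rose, and 3.15% of single genes did not overlap. Esr1, Pgr and Foxa1 were at background on all 12 arrays. By unadjusted p under 0.05, 4 of the 9 were higher and 1 was lower. The lower one, named after its values were seen, was the receptor tyrosine kinase gene Kit, between 4.05 and 8.81 in the knockout and between 8.56 and 10.05 in the wild type (-2.95, SE 0.87, adjusted p = 0.0869). Leaving out 1 array at a time, Elf5 held in 2, Krt19 in 3 and Cd24a in 11 of 12 fits, with Cd24a lost without wild-type array 4 (adjusted p = 0.0593). With the beta-actin covariate none of the 3 passed, at 0.58 for Cd24a (adjusted p = 0.267), 2.24 for Elf5 (adjusted p = 0.196) and 2.56 for Krt19 (adjusted p = 0.399).

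Basal epithelial markers lay between 4.35 and 5.21 in the knockout and between 4.33 and 5.78 in the wild type, with 0 of 6 tested members past the threshold (limma, 1 with an unadjusted p under 0.05) and Acta2 at a difference of 0.24 (SE 0.17). Macrophage markers lay between 5.22 and 5.74 in the knockout and between 5.54 and 5.82 in the wild type, with 0 of 11 past the threshold (limma, 1 higher and 4 lower with an unadjusted p under 0.05) and C1qb at -0.66 (SE 0.22). Fibroblast markers lay between 6.06 and 7.00 in the knockout and between 6.01 and 6.55 in the wild type, with 0 of 6 past the threshold (limma, 2 with an unadjusted p under 0.05) and Col3a1 at 0.94 (SE 0.26). Over all genes tested 3.34% were past the threshold in either direction.

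A sign of RNA quality is how far the 3′ control probe set of beta-actin exceeds the 5′ one. It was 1.51 ± 0.15 (SD, n = 6) in knockout tumours and 1.29 ± 0.05 in wild-type tumours. With it as a covariate the differences were 6.42 (SE 0.45) for Cbr2, 2.69 (SE 0.78) for Dcxr and 0.97 (SE 0.26) for Cbr1. The part of the cell type markers in the differences of Cbr2 and Dcxr was not tested.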

How the data were processed

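The deposited values are log2 signals of 22690 probe sets on 12 arrays, which the authors made with GCRMA, per the submitters' processing notes; its version is not given in the sources used here. They were used as deposited, and all 12 columns were used.

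Symbols came from the platform annotation, updated by gene identifier through a RefSeq gene table (GRCm38.p6, 20364 of 20393 probe sets with 1 symbol found). That table served for names and gene order, and promoter windows came from RefSeq. Each gene was represented by the probe set with the highest mean. The filter kept means over 12 arrays above 3.98, the median over probe sets, and the test was limma 3.58.1 (lmFit, eBayes with trend) in R 4.3.3 with Benjamini-Hochberg adjustment over 6825 genes at 0.05. The SE and intervals of the members came from the same fit over all 22626 probe sets that are no controls. A gene at background on a whole group has a bound, computed with that group's signals set to the background of each array.

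The members, lists and tests were chosen with earlier results of these data known. Named genes were the members, the 5 genes most like each member above background, list genes past the threshold with up to 4 more of each enzyme list by mean level, the top member of each cell type list, and immediate neighbours. The rule would also take the genes most like Cbr3, which was at background and got none. Some other genes, such as Epcam and Fasn, were named outside that rule. Steps were tested on simulated data. Correlations used scipy 1.17.1.

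Same-numbered arrays of the groups had deviations correlated between -0.02 and 0.14, and the numbers were not treated as pairs. Alternatives were other filters, eBayes without trend, quantile normalization, centring, array weights, the replicate block, averaging of knockout arrays 4 and 5, a floor at background, the beta-actin covariate, medians and leaving out each array. Centring over tested probe sets was added after seeing the data.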

Additional observations from a re-analysis of the deposited data

Results flagged for a closer look

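In each group of 6, the highest or lowest array was compared with its nearest neighbour, over 30 groups (Hunk, the 4 carbonyl reductases and the list genes past the threshold, in each genotype). Chance flags about 1 group in 20, and 3 stood out. Hunk on knockout array 4, at 2.60, lay below the next lowest at 2.94 (gap over range 0.733), with all 6 knockout values at background. Cbr3 on knockout array 6, at 2.77, lay above the next highest at 2.39 (gap over range 0.714), again below background. Cd24a on knockout array 1, at 11.61, lay below the next lowest at 11.98 (gap over range 0.659).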

How the results depend on the processing

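Cbr2, Dcxr and Cbr1 kept a positive difference under all 21 alternatives each. Leaving out 1 array gave 6.36 to 6.73 for Cbr2, 2.30 to 2.94 for Dcxr and 0.37 to 0.61 for Cbr1. A floor at array background gave 5.16 for Cbr2, since its wild-type values lie below the floor, and the beta-actin covariate gave 0.97 for Cbr1. The medians differed by 0.27 for Cbr1.

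Genes past the threshold numbered 228, and 113 with no filter, 404 with array weights, 133 with knockout arrays 4 and 5 averaged and 72 with the beta-actin covariate. They ranged from 93 to 218 with 1 array left out, with 93 without wild-type array 4, 150 without wild-type array 5, and 143, 137 and 130 without knockout arrays 4, 5 and 6. The split of 113 higher and 115 lower became 68 and 126 when arrays were centred on all probe sets, 159 and 102 when centred on tested ones, and 47 and 25 with the beta-actin covariate. The replicate block gave 68 genes past the threshold, 27 higher and 41 lower. It left Taldo1 at an adjusted p of 0.0805.

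The short-chain reductase count of 2 was 1 with no filter, the 75th percentile filter, eBayes without trend, centring on all probe sets, the replicate block, averaging or the beta-actin covariate, and 1 to 2 with 1 array left out. Hsd17b4 remained in each. The pentose phosphate count of 3 was 1 (Taldo1) with the beta-actin covariate and stayed 3 with 1 array left out. The Nrf2 count of 0 was 1 (Gstp1) with array weights, and 0 to 1 with 1 array left out, as was the aldo-keto count. The neighbour count of 0 was 1 (Rac3) with quantile normalization or centring on tested probe sets, 3 (2 higher and 1 lower) with array weights, and 0 to 2 with 1 array left out. The prostaglandin count was 0 throughout. No correlation between members passed with arrays 4 and 5 averaged or arrays centred. The causes of these changes were not tested. Signals under background limit Cbr3 and the size of the Cbr2 difference.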
